A study of Mus musculus with 9 samples.

Results

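The genes described here encode 59 ribosome biogenesis factors, the proteins that make ribosomal RNA and assemble it into ribosomal subunits. They were chosen by name as RNA polymerase I, snoRNP, processome and large-subunit assembly factors, and all 59 matched a gene name among the 54532 genes of the deposited tables. They were measured by RNA sequencing in 3T3-L1 cells, a mouse fibroblast line that turns into fat cells when given adipogenic hormones. There were 3 groups with n = 3 libraries in each. Cells of all 3 groups were first kept confluent for 3 days in high glucose DMEM with 10% bovine calf serum. The Undifferentiated group was given no differentiation medium. The Differentiated group was given a differentiation medium that held 10 μg/mL insulin, 1 μM rosiglitazone, the phosphodiesterase inhibitor 3-isobutyl-1-methylxanthine at 0.5 mM and the glucocorticoid dexamethasone at 1 μM, and the Lysfree group the same medium without added lysine, which still held traces of lysine. The study's methods give a DMEM lacking arginine and lysine, to which arginine and, for Differentiated, lysine were added back. They give 10% fetal bovine serum for the differentiation media, and the study describes 3 days of treatment. Base medium, serum and any difference in time in culture therefore cannot be told apart from the hormones in any comparison with Undifferentiated. All 3 groups are the same cell line, and the sources do not say whether the libraries of a group came from separate cultures, so p values measure the spread between these libraries.

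Ribosomes are built in the nucleolus. RNA polymerase I transcribes a long precursor, small nucleolar ribonucleoproteins (snoRNPs) modify its bases and sugars, and the small-subunit processome, which is put together from the UTP-A, UTP-B and Mpp10 complexes, folds and cuts it, while a separate set of factors assembles the large subunit. The pathway consumes much of the energy of growing cells, is driven by Myc and by nutrient signalling through mTORC1, and falls in many cells when amino acids run short.

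Several sequence features that played no part in choosing the genes were shared by many of them. RefSeq promoter windows (GRCm38.p6, 250 bases before to 50 after a start site) were given for 48 of the 59 genes, with 54 windows in all. The E-box CACGTG, a motif bound by Myc with its partner Max among other factors, occurred in 12 of the 54 windows (22.2%), compared with 7.15% of the 32851 windows of all genes. The ETS motif CCGGAAG, searched like the others on both strands, occurred in 20 (37%), compared with 8.86%, and the TATA box TATAAA in 4 (7.41%), compared with 13.6%. No match overlapped a match of another motif. Those with an E-box before the start site included Imp4, Nop2 and Nol11, at 121, 60 and 43 bases before it. They are shown because all 3 encode factors whose RNA was higher in both differentiation media than in Undifferentiated, so they were picked by their response. Utp18 and Wdr46, with an E-box 20 and 12 bases before the start site, also rose in both media. Rrp7a, with an E-box 208 bases before it, rose in Differentiated and fell in Lysfree against Undifferentiated. Whether the motif goes with the response was not tested. The last 140 bases before the start sites of Imp4, Nop2 and Nol11 are given on the gene's strand. The E-box, and in Nop2 also an ETS motif, is in capitals. The Imp4 stretch also lies in an exon of Gm28306, a non-coding RNA annotated on the opposite strand.
Imp4, chr1:34439689-34439828, plus strand: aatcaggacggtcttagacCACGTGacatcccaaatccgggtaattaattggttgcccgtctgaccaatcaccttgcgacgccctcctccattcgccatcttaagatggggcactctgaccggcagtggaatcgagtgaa
Nop2, chr6:125131743-125131882, plus strand: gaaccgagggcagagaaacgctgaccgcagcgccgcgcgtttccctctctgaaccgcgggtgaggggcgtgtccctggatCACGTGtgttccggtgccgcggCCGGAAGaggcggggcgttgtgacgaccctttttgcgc
Nol11, chr11:107189382-107189521, minus strand: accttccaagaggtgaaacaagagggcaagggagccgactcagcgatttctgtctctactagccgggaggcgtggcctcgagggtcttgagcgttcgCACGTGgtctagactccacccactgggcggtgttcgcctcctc

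A match is a description of the letters and does not show that a factor was bound. The RNA of Myc itself was 11.6, 11.3 and 10.8 FPKM in the Undifferentiated libraries, 62.5, 63.1 and 66.0 in the Differentiated and 57.0, 62.4 and 65.0 in the Lysfree libraries, which gave log2 fold changes of 2.48 and 2.499 against Undifferentiated, and of 0.01 between both media (standard error 0.09, edgeR adjusted p = 0.954). Max differed in none of the comparisons at an edgeR adjusted p under 0.05, with group means of 24.9, 24.6 and 24.0 FPKM. Of the 12 genes of the Myc network list with a count, 7 rose and 2 fell in Differentiated against Undifferentiated, 3 rose and 4 fell in Lysfree against Undifferentiated, and 3 were higher and 7 lower in Lysfree than in Differentiated (median log2 fold change -1.0). Those lower in Lysfree included Mxd1, Mxd4 and Mxi1, whose proteins compete with Myc for Max, with log2 fold changes of -2.78, -1.46 and -1.87 and edgeR adjusted p of 2.85e-13, 4.42e-11 and 7.75e-12, and were picked out after their values were seen. Over all genes tested, 19.7% were higher and 18.8% lower in Lysfree than in Differentiated at an edgeR adjusted p under 0.05. Among genes that passed edgeR's expression filter, these shares were 33.2% and 30.0%. Against Undifferentiated they were 37.3% and 37.7% in Differentiated and 30.5% and 27.8% in Lysfree. The 3 and 4 of 12 network genes in Lysfree against Undifferentiated were near the last 2 shares. The part of the network in the changes described here was not tested.

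The proteins are also rich in the amino acid that was left out. Over the longest coding sequence of each gene (GENCODE vM21, GRCm38), lysine codons (AAA and AAG) made up a median of 8.1% of the codons of the 59 genes, compared with 5.36% over 21526 genes, and 43 of the 59 lay above the upper quartile of all genes, 7.13%. The share was highest in Nolc1 (15.5%), Ebna1bp2 (14.7%), Rrp15 (14.6%) and Nop58 (13.4%), and lowest in Nol6 (3.56%), Bop1 (4.1%) and Tbl3 (4.12%). The snoRNP proteins had the highest median of the role groups, 11%. The 30 codons with the most lysine codons are shown for 3 genes that responded differently to the medium without lysine, with the lysine codons in capitals.
Nolc1, codons 139 to 168, 9 of 30 for lysine: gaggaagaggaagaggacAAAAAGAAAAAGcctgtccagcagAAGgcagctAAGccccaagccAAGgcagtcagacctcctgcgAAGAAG
Nop58, codons 438 to 467, 11 of 30 for lysine: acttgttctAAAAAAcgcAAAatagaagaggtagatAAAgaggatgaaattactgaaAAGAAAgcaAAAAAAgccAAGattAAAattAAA
Ddx21, codons 28 to 57, 9 of 30 for lysine: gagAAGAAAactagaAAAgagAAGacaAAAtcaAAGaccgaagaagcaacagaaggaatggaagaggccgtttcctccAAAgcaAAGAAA

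Across the genes, the share of lysine codons and the log2 fold change between Lysfree and Differentiated had a Spearman rho of 0.033 (n = 58 genes that share libraries, a description with no test). For Lysfree against Undifferentiated the rho was -0.174. Genes rich in lysine codons were found on both sides of 0 between Lysfree and Differentiated, as the values of Nolc1, Nop58 and Ddx21 below show.

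Levels are given as the deposited FPKM (fragments per kilobase of gene, scaled to the total of the library), and differences as log2 fold changes from edgeR's quasi-likelihood test on the deposited read counts, fitted over all genes with a Benjamini-Hochberg adjustment over all of them. A gene was called when the adjusted p was under 0.05. Total counts were 15880144 to 21806693 per library, of which the 59 genes took 0.438 to 0.441% in Undifferentiated, 0.679 to 0.709% in Differentiated and 0.796 to 0.854% in Lysfree libraries, so the 3 groups did not overlap. In bulk RNA of this kind, fewer cells of a type and less RNA per cell cannot be told apart, and because polyadenylated RNA was selected, these libraries do not measure the level of ribosomal RNA. Gm26917, a non-coding RNA that overlaps ribosomal RNA sequence and can collect reads from leftover ribosomal RNA, was at 57.2, 60.6 and 59.2 FPKM in Undifferentiated, 211, 223 and 239 in Differentiated and 54.6, 105.2 and 94.2 in Lysfree libraries, with a log2 fold change of 1.90 in Differentiated against Undifferentiated and of -1.34 between Lysfree and Differentiated. It thus moved with the groups, and its part in the results was not tested. Adipocyte markers summed to 6900 to 7260 FPKM in Differentiated libraries, against 314 to 396 in Undifferentiated and 292 to 408 in Lysfree libraries, while the preadipocyte and fibroblast markers summed to 1150 to 1160, 4480 to 4890 and 2630 to 2700. Endothelial and skeletal muscle markers summed to at most 0.63 and 0.446 FPKM in any library, and macrophage markers, with 4 of 8 genes at or under 3 counts in the Undifferentiated, 3 in the Differentiated and 5 in the Lysfree libraries, to at most 22.6.

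The library Lysfree 1 stood apart from Lysfree 2 and 3. Its counts over all genes differed from theirs with a chi-square per degree of freedom of 39.6 and 40.7, compared with 2.67 between Lysfree 2 and 3 and at most 11.3 in the other groups. Of the 58 biogenesis genes above the detection floor, 12 were more than 1.25-fold lower in Lysfree 1 than the mean of Lysfree 2 and 3, and 5 were higher by more than that. The low ones lay mostly among the shorter genes, and the median log2 ratio was -0.21 over the 29 shorter genes (up to 4099 bases) and 0.03 over the 29 longer ones (Spearman rho with gene length 0.566 over the 58 genes, a description). Counts that differ without this library are given both ways below.

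**Figure D1:**
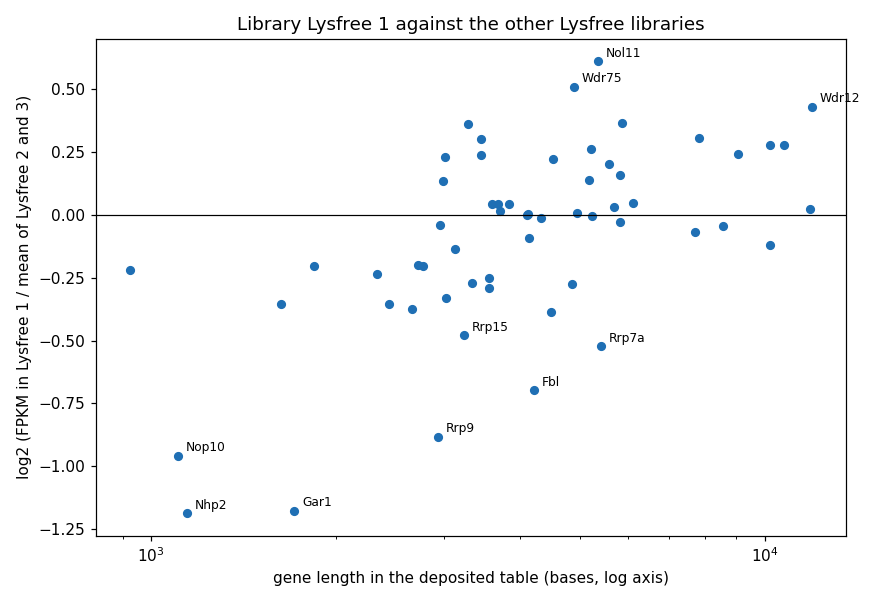
Log2 ratio of the FPKM in Lysfree 1 to the mean of Lysfree 2 and 3 (vertical axis) against gene length in bases (horizontal log axis), with a point for each of 58 ribosome biogenesis genes. Gar1, Nhp2 and Nop10, at the short end, lie lowest, and the median of the 29 genes over 4099 bases is 0.03.

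The change from Undifferentiated to Differentiated addresses which of these genes respond to the adipogenic medium. In it, 48 of the 58 genes with a fold change rose and none fell, and the other 10 were not called. Over all 24402 genes tested, 23.0% were called higher, and among the 13869 that passed edgeR's expression filter, 37.3%. Lower calls made up 23.2% of all genes, 11.4% at least 2-fold. The number called lower was also 0 at an unadjusted edgeR p under 0.05, and 0 with DESeq2 and with limma. The median log2 fold change of the 58 was 0.69, in a range of -0.06 to 1.88, compared with a median of 0.02 over all genes tested. At least 2-fold rises were seen in 16, compared with 10.4% of all genes. The libraries of both groups did not overlap in FPKM in 50 genes, all higher in Differentiated, while over all genes 26.2% were higher and 24.7% lower without overlap.

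From Undifferentiated to Lysfree, 54 of the 58 genes rose, 2 fell (Rrp1 and Rrp7a) and 2 were not called (Imp3 and Utp3). Over all 23994 genes tested, 18.0% were called higher and 17.1% lower, and among expressed genes 30.5% were called higher. The median log2 fold change was 1.06, in a range of -0.88 to 2.49, and 32 genes rose at least 2-fold, compared with 5.52% of all genes, while none fell 2-fold, compared with 8.76%. The libraries did not overlap in 52 genes that were higher and in the same 2 that fell, compared with 20.2% and 23.2% of all genes. Without Lysfree 1, 55 rose and the same 2 fell.

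Lysfree and Differentiated cells received the same hormones and differ in lysine, and here 28 of the 58 genes were higher and 7 lower in Lysfree, while 23 were not called. Over all 24130 genes tested, 19.7% were called higher and 18.8% lower, and among the 13617 expressed genes 33.2% and 30.0%. The median log2 fold change was 0.28, in a range of -0.83 to 1.18, compared with -0.06 over all genes tested and 0.03 over the expressed ones. The differences were small, since 1 gene, Utp15, was past 2-fold, compared with 8.14% of all genes called at least 2-fold higher and 10.5% at least 2-fold lower. The libraries did not overlap in 27 genes that were higher and 12 that were lower, compared with 21.3% and 25.3% of all genes. Without Lysfree 1, all of these calls held and 8 more genes were called higher and 4 more lower, giving 36 and 11. The comparisons share libraries, so they are not independent of each other.

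**Figure D2:**
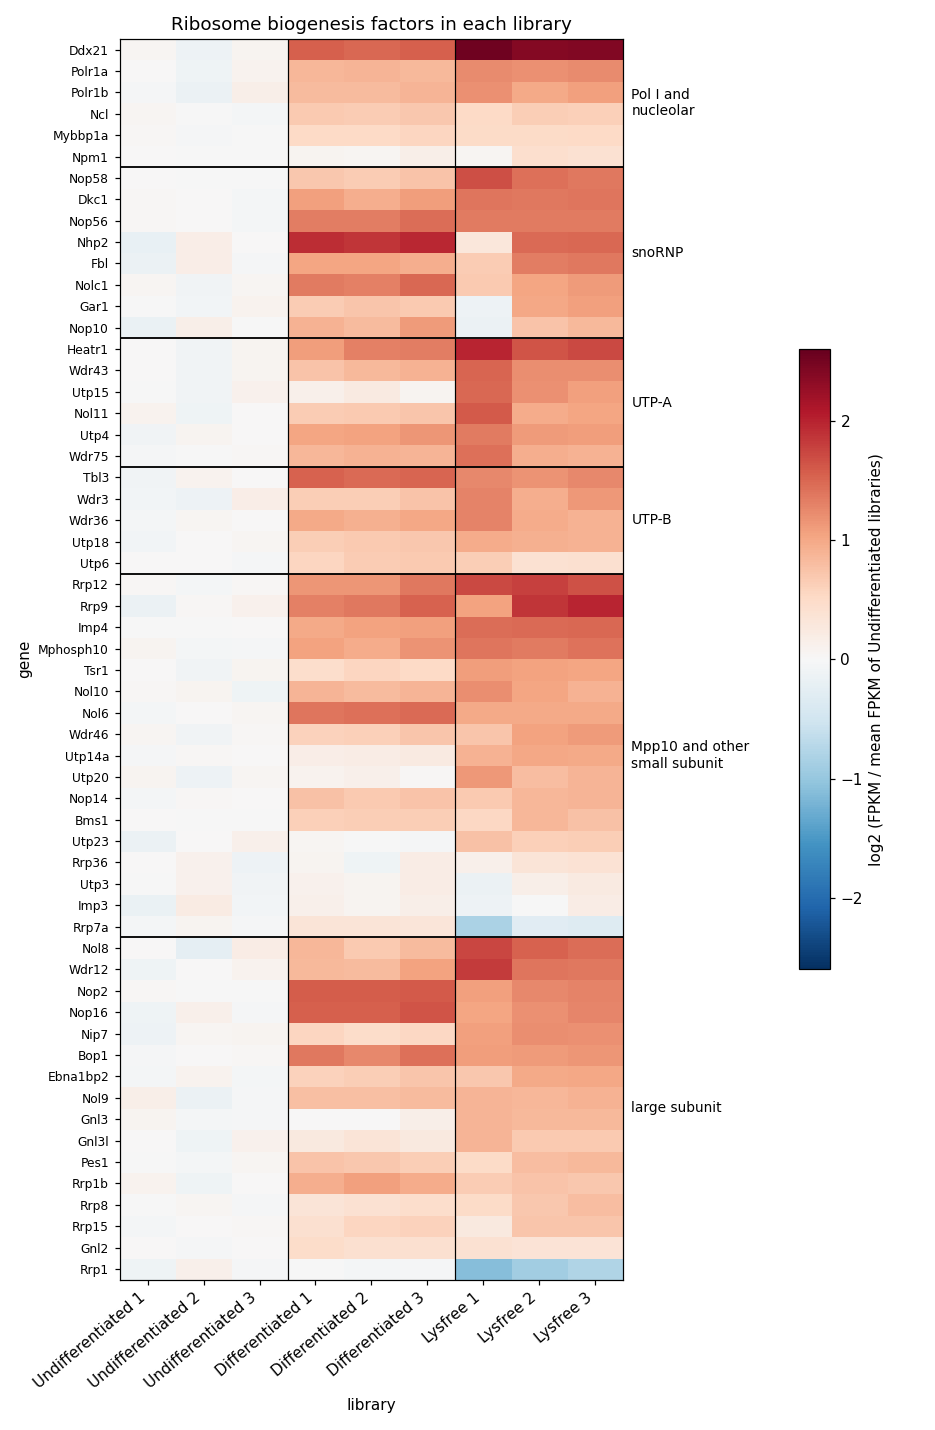
Log2 of the FPKM of each gene (rows, grouped by role and, within a role, ordered by the change in Lysfree) over its mean in the Undifferentiated libraries, in each of the 9 libraries (columns). Most rows are red in all Differentiated and Lysfree libraries, Rrp1 and Rrp7a are bluest in the Lysfree libraries, and Gar1, Nhp2 and Nop10 are paler in Lysfree 1 than in Lysfree 2 and 3.

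Among RNA polymerase I and multifunctional nucleolar proteins, 5 of 6 rose in Differentiated and 6 of 6 in Lysfree, and the medians of their log2 fold changes over Undifferentiated were 0.74 and 0.88. Polr1a, the largest subunit of RNA polymerase I, was at 7.32, 6.74 and 7.79 FPKM in the Undifferentiated, 13.3, 13.5 and 13.1 in the Differentiated and 17.2, 16.6 and 17.1 in the Lysfree libraries. The 3 groups were fully separated, with log2 fold changes of 0.85 in Differentiated (standard error 0.06, edgeR adjusted p = 5.36e-46) and 1.27 (0.10, 2.1e-12) in Lysfree against Undifferentiated, and 0.41 (0.08, 0.000369) in Lysfree against Differentiated. Polr1b, the other large subunit of the polymerase, took the same order, at 5.22 ± 0.581, 9.36 ± 0.285 and 10.99 ± 0.778 FPKM (SD, n = 3). Its call in Lysfree against Differentiated (log2 fold change 0.30, edgeR adjusted p = 0.0202) was lost when Differentiated 1 was left out (edgeR adjusted p = 0.0982) or Differentiated 2 (0.0847). It was also lost with limma (0.064 and 0.0648).

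Ddx21 (ENSMUSG00000020075, chromosome 10, 62580251 to 62602281 in mm10), an RNA helicase that links RNA polymerase I transcription to snoRNA function, changed more in Lysfree against Undifferentiated than any other of the 58 genes. It was at 14.9, 13.02 and 15.1 FPKM in Undifferentiated, 42.4, 40.1 and 42.4 in Differentiated and 83.1, 74.6 and 76.5 in Lysfree libraries. No 2 groups overlapped, and the level was 2.85-fold higher in Differentiated (edgeR adjusted p = 5.64e-148) and 5.62-fold higher in Lysfree (2.51e-19) than in Undifferentiated. Between both media it was 1.96-fold higher without lysine (log2 fold change 0.97, standard error 0.08, edgeR adjusted p = 4.25e-09). Its coding sequence is rich in lysine codons, and a part of these in its level was not tested.

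The abundant nucleolar proteins moved less. Npm1, the histone-binding chaperone nucleophosmin and the highest of the 59 genes in FPKM, was at 254, 250.2 and 249 FPKM in Undifferentiated, 262, 259.8 and 281 in Differentiated and 259, 339 and 332 in Lysfree libraries. It was not called in Differentiated against Undifferentiated (log2 fold change 0.07, 95% interval -0.03 to 0.16). Lysfree 1 lay just below the Differentiated libraries. The rise of 0.28 between both media (edgeR adjusted p = 0.0253) was lost without either of Differentiated 1 and 2 or either of Lysfree 2 and 3 (edgeR adjusted p 0.0826 to 0.134). It was also lost with DESeq2, limma or either filter on low counts (adjusted p of 0.0759 to 0.261). The rise of 0.35 in Lysfree against Undifferentiated (edgeR adjusted p = 0.00525) was lost without Undifferentiated 3 (0.0681) and with limma (0.116 and 0.127). Npm1 also has processed pseudogenes, and reads that match them may be counted differently. Ncl, the RNA-binding protein nucleolin, was at 62.0 ± 1.84, 99.5 ± 1.49 and 93.5 ± 4.39 FPKM, and Mybbp1a, a nucleolar protein that binds Myb and takes part in ribosomal RNA transcription, at 43.7 ± 0.732, 63.3 ± 1.2 and 62.1 ± 0.831. Both rose in both media (log2 fold changes of 0.66 and 0.51 in Differentiated, 0.64 and 0.55 in Lysfree), and between the media they had intervals of -0.17 to 0.12 and -0.12 to 0.19.

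All 8 snoRNP proteins rose in both media against Undifferentiated, by a median of 0.99 in Differentiated and 1.22 in Lysfree on the log2 scale. Between the media, Nop58 and Dkc1 were called higher and Nhp2 and Nolc1 lower in Lysfree. These 2 of 8 in each direction did not exceed the shares of expressed genes, 33.2% higher and 30.0% lower. Without Lysfree 1 there were 4 higher and the same 2 lower. With limma, the rises of Gar1, Nhp2 and Nop10 in Lysfree against Undifferentiated were not called (adjusted p of 0.0514 to 0.26). Box C/D snoRNPs, which methylate ribosomal RNA, contain the methyltransferase Fbl and the scaffold proteins Nop56 and Nop58. Nop58 was at 8.503, 8.36 and 8.31 FPKM in Undifferentiated, 13.6, 13.2 and 14.0 in Differentiated and 26.8, 22.7 and 21.6 in Lysfree libraries. Its partner Nop56 was at 30.4, 29.6 and 28.8, then 74.9, 74.2 and 81.2, and then 75.5, 75.2 and 75.6.

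Differentiated and Lysfree are parallel groups and not successive stages, and the paralogous partners differed in how these groups compared. Nop58 was higher by 0.67 on the log2 scale in Differentiated than in Undifferentiated (standard error 0.06, edgeR adjusted p = 7.23e-29). In Lysfree against Differentiated it was higher by 0.87 (0.09, 1.15e-07). Nop56 was higher by 1.35 (0.06, 8.46e-131) in Differentiated than in Undifferentiated and differed by 0.04 between both media (95% interval -0.12 to 0.20). In Lysfree against Undifferentiated, the log2 fold change was 1.54 for Nop58 and 1.40 for Nop56. Both genes host snoRNA genes, and in Nop56 4 snoRNAs share 70 to 100 exon bases each with it, out of 4099.

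Fbl was at 12.3, 15.4 and 13.3 FPKM in Undifferentiated, 27.8, 27.7 and 26.4 in Differentiated, and 21.4, 34.4 and 35.2 in Lysfree libraries, where Lysfree 1 lay below all Differentiated libraries and the others above. It was not called between both media with all libraries (log2 fold change 0.22, edgeR adjusted p = 0.234) and was called higher in Lysfree without Lysfree 1 (0.40, 1.93e-15).

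Box H/ACA snoRNPs, which convert uridine to pseudouridine, contain the enzyme Dkc1 with Gar1, Nhp2 and Nop10. Dkc1, the pseudouridine synthase, was at 11.1, 10.96 and 10.5 FPKM in Undifferentiated, 22.6, 20.9 and 22.9 in Differentiated and 28.3, 28.1 and 28.4 in Lysfree libraries, 3 separate levels with log2 fold changes of 1.00 (edgeR adjusted p = 4.23e-49), 1.43 (2.32e-13) and, between the media, 0.42 (0.000628). Nhp2 (ENSMUSG00000001056, chromosome 11, 51619735 to 51623714), the RNA-binding core protein, was at 26.3, 33.9 and 30.2, then 114, 109 and 117, and then 36.9, 83.3 and 85.0 FPKM. Its 3.69-fold rise in Differentiated (log2 fold change 1.88, edgeR adjusted p = 5.31e-175) was the largest of the 58 genes.

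In Lysfree the level of Nhp2 was lower than in Differentiated in all 3 libraries (log2 fold change -0.66, standard error 0.19, edgeR adjusted p = 0.00825), most of all in Lysfree 1, and without Lysfree 1 the log2 fold change was -0.38 (3.38e-13). The call was lost without Differentiated 2 (edgeR adjusted p = 0.0539), with edgeR's expression filter (0.0501) and with limma (0.103 and 0.111). The small proteins Gar1 and Nop10 showed the same low value in Lysfree 1, at 17.5 FPKM against 38.7 and 40.4 for Gar1 and at 29.97 against 56.2 and 60.3 for Nop10. Gar1 was at 19.2 ± 1.12 FPKM in Undifferentiated and 30.9 ± 0.75 in Differentiated, and Nop10 at 33.4 ± 3.81 and 64.5 ± 6.38, so that Lysfree 1 lay within or below the Undifferentiated range for both. Neither was called between both media with all libraries. Without Lysfree 1, Gar1 was called higher (log2 fold change 0.40, edgeR adjusted p = 1.92e-09) and Nop10 was not called (-0.10, 0.198). Nop10 was called lower without Lysfree 2 (-0.45, 0.0161) or Lysfree 3 (-0.52, 0.00503), fits in which the low Lysfree 1 weighs more. Its rise against Undifferentiated (0.60, 0.0029) was lost without Undifferentiated 3 (0.076) and with either filter on low counts (edgeR adjusted p of 0.0683 and 0.0832).

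Nolc1, a lysine-rich nucleolar protein that accompanies snoRNPs and has the highest share of lysine codons in the set, was at 17.3, 15.8 and 17.3 FPKM in Undifferentiated, 42.9, 41.4 and 47.3 in Differentiated and 26.9, 34.1 and 36.4 in Lysfree libraries. It rose in both media (log2 fold change 1.36 and 1.00) and was lower in Lysfree than in Differentiated (log2 fold change -0.37, standard error 0.11, edgeR adjusted p = 0.00811), with no overlap between the groups. Nop58 and Ddx21, also shown above for their runs of lysine codons, went the other way.

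**Figure D3:**
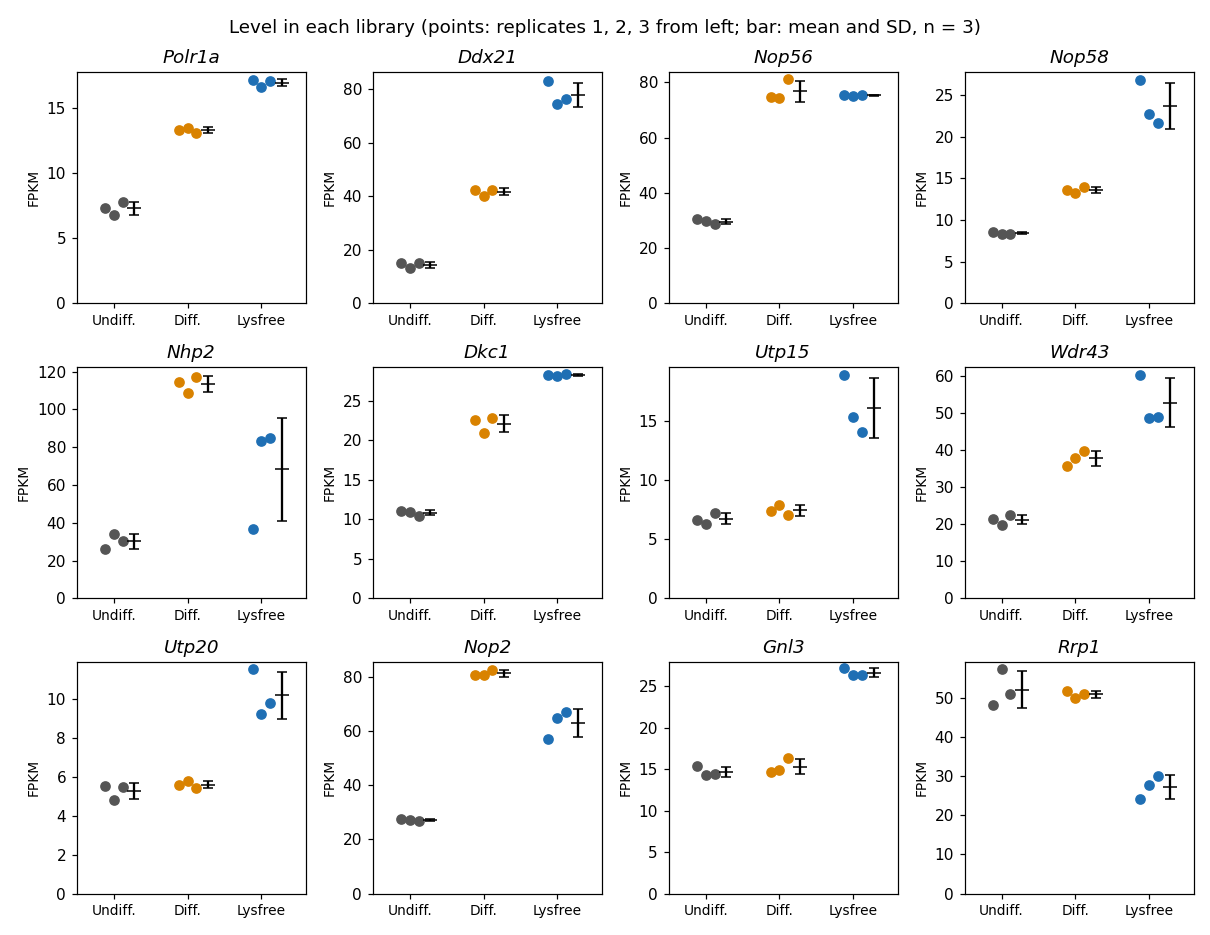
FPKM (vertical axes, from 0) of 12 named genes in the 9 libraries. Each point is a library, and the bar beside each group is its mean with SD (n = 3). Ddx21, Nop58 and Utp15 are highest in Lysfree, Nhp2 and Nop2 in Differentiated, and Rrp1 is at similar levels in Undifferentiated and Differentiated and lower in Lysfree.

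The UTP-A complex, which binds the growing precursor first and also promotes its transcription, had all 6 members at least 2-fold higher in Lysfree than in Undifferentiated, with log2 fold changes of 1.16 to 1.83 (5 of 6 without Lysfree 1). In Differentiated, 5 of 6 rose, 2 of them at least 2-fold. The complex had the highest median change of the role groups between both media (0.57, or 0.38 without Lysfree 1, with 4 of 6 called higher and none lower in both cases). Without Lysfree 1 the Mpp10 complex and other small-subunit factors came close, with a median of 0.36. All 6 UTP-A genes were higher in Lysfree 1 than the mean of Lysfree 2 and 3, by 1.18-fold (Utp4) to 1.53-fold (Nol11). The count of 0 lower held at an unadjusted p, since all 6 estimates were above 0. Heatr1, a large repeat protein of the complex, was at 3.99, 3.72 and 4.16 FPKM in Undifferentiated, 8.37, 9.88 and 9.92 in Differentiated and 15.6, 12.2 and 13.02 in Lysfree libraries (log2 fold changes against Undifferentiated of 1.22 and 1.83, and of 0.60 between the media, edgeR adjusted p = 8.78e-05). Wdr43, a WD-repeat protein, had the same order of groups, at 21.2 ± 1.26, 37.7 ± 2.09 and 52.7 ± 6.62 FPKM.

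Utp15 (ENSMUSG00000041747, chromosome 13, 98246845 to 98263041) behaved differently from its partners. It was at 6.64, 6.31 and 7.21 FPKM in Undifferentiated, 7.34, 7.89 and 7.04 in Differentiated and 18.9, 15.3 and 14.0 in Lysfree libraries. The Undifferentiated and Differentiated libraries overlapped (log2 fold change 0.12, 95% interval -0.03 to 0.27), and every Lysfree library lay at nearly 14 FPKM or above. The rise over Differentiated, 2.26-fold (log2 fold change 1.18, standard error 0.11, edgeR adjusted p = 1.91e-08), was the largest of the 58 genes. Of the others, Utp4 rose to 33.3 ± 1.45 FPKM in Differentiated and was at 36.1 ± 3.53 in Lysfree (95% interval of the log2 fold change between the media -0.00035 to 0.37), Nol11 was at 6.86 ± 0.476, 11.1 ± 0.199 and 16.0 ± 4.16, and Wdr75 rose to 21.3 ± 0.274 and 24.8 ± 5.33. Lysfree 1 was the highest library for both, at 20.8 FPKM for Nol11 against 13.3 and 13.9, and at 31.0 for Wdr75 against 21.96 and 21.6. Nol11 was higher in Lysfree than in Differentiated by a log2 fold change of 0.60, or of 0.35 without Lysfree 1, and was not called with limma (adjusted p of 0.071 and 0.0789).

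In the UTP-B complex, which joins after UTP-A and consists largely of WD-repeat proteins, all 5 members rose in both media, by a median of 0.65 in Differentiated and 1.11 in Lysfree on the log2 scale. Between the media, Wdr3 and Utp18 were higher in Lysfree, with log2 fold changes of 0.51 and 0.32, and the other 3 were not called. The call of Utp18 was lost without Differentiated 1 (edgeR adjusted p = 0.0875), and without Lysfree 1 Utp6 (-0.18, edgeR adjusted p = 0.00527) and Tbl3 were called lower. Tbl3 was at 4.09, 4.64 and 4.39 FPKM in Undifferentiated, 12.7, 12.2 and 12.5 in Differentiated and 10.3, 9.78 and 10.4 in Lysfree libraries. Its level was thus highest in Differentiated, with no overlap with Lysfree, and the difference of -0.23 (edgeR adjusted p = 0.0646) was called with DESeq2 (adjusted p = 0.0152), with limma, with either filter on low counts, with median-of-ratios scaling and without Lysfree 1 (-0.26, 0.000137). Noxo1, on the opposite strand, shares 37.3% of the exon bases of Tbl3, and reads of the shared part could have been assigned to either gene. The same holds for Wdr3, with 15.7% shared with Spag17. Wdr36 was at 15.2 ± 0.506, 29.8 ± 0.893 and 31.7 ± 4.8 FPKM, and Utp6 at 11.4 ± 0.186, 17.7 ± 0.73 and 15.92 ± 1.47.

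The Mpp10 complex and the other small-subunit factors moved in both directions. Of 17, 11 rose in Differentiated and 14 in Lysfree, where Rrp7a fell, and between both media 9 were higher and 2, Nol6 and Rrp7a, lower (13 and 2 without Lysfree 1). Mphosph10, the core of the Mpp10 complex, was at 6.06, 5.57 and 5.64 FPKM in Undifferentiated, 11.9, 11.3 and 12.98 in Differentiated and 15.2, 14.7 and 15.4 in Lysfree libraries. Its partner Imp4 followed it closely, at 4.61 ± 0.0235, 9.43 ± 0.214 and 12.8 ± 0.248 FPKM. For both, the 3 groups were separate, and Lysfree exceeded Differentiated by log2 fold changes of 0.39 (edgeR adjusted p = 0.00398) and 0.51 (8.53e-05).

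Imp3, which binds the same protein, did not follow. It was at 50.2, 65.3 and 54.1 FPKM in Undifferentiated, 61.9, 59.3 and 63.0 in Differentiated and 51.9, 56.2 and 64.6 in Lysfree libraries. All 3 groups overlapped, with 95% intervals of the log2 fold change of -0.05 to 0.23 in Differentiated and -0.16 to 0.31 in Lysfree against Undifferentiated. Without Undifferentiated 2, its highest library, Imp3 was called higher in Differentiated (log2 fold change 0.21, edgeR adjusted p = 0.00501). Utp3, a processome factor encoded like Imp3 by a short gene, was likewise not called in any of the 3 comparisons, at 24.4 ± 1.74, 26.5 ± 1.08 and 25.9 ± 3.63 FPKM, and was called in Lysfree against Undifferentiated without Lysfree 1 (log2 fold change 0.22, edgeR adjusted p = 0.0289).

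Several small-subunit factors were not called in Differentiated against Undifferentiated and were higher in Lysfree than in both. Utp20 (ENSMUSG00000004356, chromosome 10, 88746607 to 88826804), a large repeat protein of the processome, was at 5.54, 4.82 and 5.49 FPKM in Undifferentiated, 5.60, 5.78 and 5.41 in Differentiated and 11.6, 9.26 and 9.81 in Lysfree libraries. Its log2 fold change was 0.06 in Differentiated (95% interval -0.08 to 0.20), 1.00 in Lysfree (edgeR adjusted p = 3.15e-09) and 0.93 between both media (1.38e-07). Utp14a, which activates the helicase Dhx37, was at 6.16 ± 0.152, 7.07 ± 0.152 and 12.1 ± 0.457 FPKM, with no overlap between Undifferentiated and Differentiated (log2 fold change 0.17, edgeR adjusted p = 0.102, but 0.0414 and 0.0481 with either filter on low counts and 0.0177 and 0.0162 with limma), and Utp23 at 5.59 ± 0.54, 5.6 ± 0.166 and 8.9 ± 0.483. Their log2 fold changes between both media were 0.83 and 0.73, and each shares 11.5% of its exon bases with a non-coding RNA on the opposite strand. Rrp36 showed a smaller difference, at 16.5 ± 1.41, 17.2 ± 1.72 and 20.1 ± 1.86 FPKM, and the groups overlapped between both media (log2 fold change 0.29, edgeR adjusted p = 0.0476). That call was lost under 11 of the 15 alternatives, among them DESeq2, limma and either filter on low counts (adjusted p of 0.0646 to 0.25), and its call in Lysfree against Undifferentiated (log2 fold change 0.33) under 7.

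Rrp9, which binds the U3 snoRNA, was at 7.11, 8.04 and 8.45 FPKM in Undifferentiated, 19.6, 20.3 and 22.8 in Differentiated and 16.1, 28.6 and 31.0 in Lysfree libraries. Both rises against Undifferentiated were over 2-fold (log2 fold changes 1.39 and 1.73), while between the media Lysfree 1 lay below and the other Lysfree libraries above all Differentiated libraries, and a difference of 0.34 (edgeR adjusted p = 0.113) became 0.56 (2.7e-20) without it. Leaving out Differentiated 3 also led to a call (0.41, 0.0285). Rrp12, an export factor for both subunits, was at 4.10 ± 0.118, 9.61 ± 0.91 and 13.5 ± 0.537 FPKM, and its log2 fold change of 1.76 in Lysfree against Undifferentiated (edgeR adjusted p = 5.11e-14) was exceeded by Ddx21 and Heatr1 alone among the 58.

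Nol6 and Rrp7a, which pair in the UTP-C complex, were the ones that were lower in Lysfree against Differentiated, but they differed against Undifferentiated. Nol6 was at 10.3, 10.8 and 11.1 FPKM in Undifferentiated, 27.98, 28.8 and 29.7 in Differentiated and 21.2, 21.3 and 21.1 in Lysfree libraries, so that its Lysfree level was intermediate (log2 fold change against Differentiated -0.38, standard error 0.09, edgeR adjusted p = 0.00112). Rrp7a was at 14.3, 15.7 and 14.7 in Undifferentiated, 18.8, 18.7 and 18.5 in Differentiated and 8.36, 12.2 and 11.9 in Lysfree libraries, all below the Undifferentiated ones. It rose by a log2 fold change of 0.30 in Differentiated (edgeR adjusted p = 4.01e-06) and fell in Lysfree, with -0.41 against Undifferentiated (0.00625) and -0.72 against Differentiated (4.24e-05). The fall against Undifferentiated was lost without Undifferentiated 3 (edgeR adjusted p = 0.0624) and with limma (0.0618 and 0.0646). Serhl shares 12.5% of the exon bases of Rrp7a on the opposite strand.

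**Figure D4:**
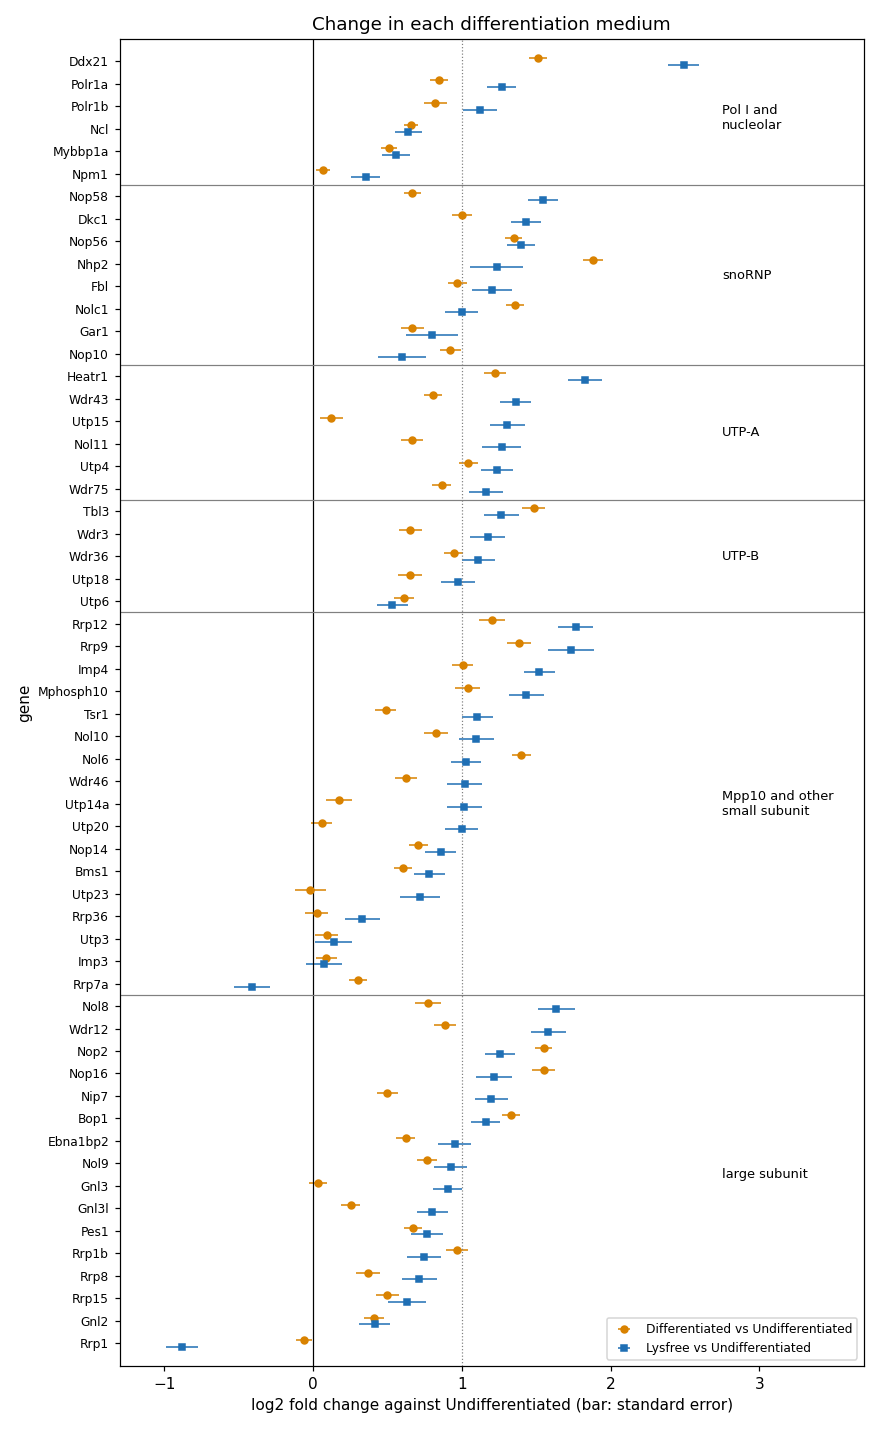
Log2 fold change (horizontal axis) with standard error of 58 genes in Differentiated (orange circles) and Lysfree (blue squares) against Undifferentiated, grouped by role, with a dotted line at a 2-fold rise. Utp15, Utp20, Utp23 and Gnl3 lie near 0 in Differentiated and well to the right in Lysfree, and Rrp1 and Rrp7a lie left of 0 in Lysfree. Both comparisons share the Undifferentiated libraries.

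The remaining small-subunit factors, Nop14, Nol10, Wdr46, Bms1 and Tsr1, rose in both media, with log2 fold changes of 0.49 to 0.83 in Differentiated and 0.78 to 1.10 in Lysfree. Bms1 is a GTPase of the processome and Tsr1 a related protein of the late small subunit, of whose exon bases 32.3% are shared with Srr. Tsr1 had the largest difference of these 5 between both media, at 15.1 ± 0.632 FPKM in Differentiated and 22.1 ± 0.412 in Lysfree (log2 fold change 0.61, edgeR adjusted p = 1.61e-05).

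Large-subunit assembly factors rose in 14 of 16 cases in Differentiated and 15 of 16 in Lysfree, and 7 were higher and 3 (Nop2, Nop16 and Rrp1) lower in Lysfree than in Differentiated (9 and 5 without Lysfree 1). Of the 7, Rrp8 and Ebna1bp2 each lost the call with limma and without any of 4 libraries. The PeBoW complex, which is needed to process the 28S and 5.8S ribosomal RNAs, consists of Pes1, Bop1 and Wdr12, and its members took 3 different courses. Bop1 was at 21.2, 21.7 and 22.1 FPKM in Undifferentiated, 56.2, 51.8 and 58.6 in Differentiated and 46.0, 46.8 and 47.7 in Lysfree libraries. Pes1 was at 26.9, 26.0 and 28.1, then 45.1, 44.0 and 42.4, and then 37.99, 47.2 and 48.3. Wdr12 was at 2.59, 2.83 and 3.01, then 5.07, 4.99 and 5.78, and then 9.84, 7.36 and 7.23.

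Bop1 was thus highest in Differentiated (2.52-fold over Undifferentiated, edgeR adjusted p = 3.58e-106), and Wdr12 in Lysfree (3.0-fold, 7.79e-13). Between both media Wdr12 was higher in Lysfree by a log2 fold change of 0.69 (edgeR adjusted p = 4.18e-05), Bop1 differed by -0.18 with no overlap (0.118, though it was called lower with DESeq2, limma, either filter and without Lysfree 1, at an adjusted p of 0.000247 to 0.0454), and Pes1 by 0.09 with overlap (0.501, and 0.17 with 0.0011 without Lysfree 1).

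Nop2 (ENSMUSG00000038279, chromosome 6, 125131909 to 125144753), a methyltransferase of 28S ribosomal RNA whose promoter sequence is given above, was at 27.7, 27.2 and 27.0 FPKM in Undifferentiated, 80.8, 80.7 and 82.8 in Differentiated and 57.2, 64.8 and 67.1 in Lysfree libraries. Nop16 ran in parallel, at 13.6 ± 1.21, 40.5 ± 1.22 and 30.4 ± 2.59 FPKM. Each rose by a log2 fold change of 1.55 in Differentiated (edgeR adjusted p = 1.84e-157 and 1.67e-92), the largest rises after Nhp2, and was lower in Lysfree than in Differentiated by -0.30 (0.0091) and -0.35 (0.00781), while still over 2-fold above Undifferentiated.

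The GTPases Gnl2, Gnl3 and Gnl3l differed from each other. Gnl3 (nucleostemin), a protein of proliferating and stem cells, was at 15.4, 14.3 and 14.5 FPKM in Undifferentiated, 14.7, 14.9 and 16.4 in Differentiated and 27.3, 26.4 and 26.3 in Lysfree libraries. It did not change detectably in Differentiated (log2 fold change 0.03, 95% interval -0.09 to 0.15) and rose in Lysfree by 0.91 (edgeR adjusted p = 2.98e-09) against Undifferentiated and 0.86 (6.03e-08) against Differentiated. Its relative Gnl3l took a middle course (13.2 ± 1.01, 16.0 ± 0.562 and 22.3 ± 1.83 FPKM), and Gnl2 rose alike in both media (15.89 ± 0.238, 21.5 ± 0.612 and 20.5 ± 0.377), with an interval between the media of -0.19 to 0.17.

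Rrp1 (ENSMUSG00000061032, chromosome 10, 78400384 to 78413043), a factor of early large-subunit particles, went against the set. It was at 48.0, 57.4 and 50.8 FPKM in Undifferentiated, 51.7, 49.96 and 50.9 in Differentiated and 24.0, 27.8 and 30.1 in Lysfree libraries. Undifferentiated and Differentiated overlapped (log2 fold change -0.06, 95% interval -0.17 to 0.05), and all Lysfree libraries lay far below, 1.84-fold under Undifferentiated (log2 fold change -0.88, standard error 0.11, edgeR adjusted p = 2.84e-08) and 1.78-fold under Differentiated (-0.83, 0.10, 3.83e-07). Its paralog Rrp1b, at 3.98 ± 0.277, 7.91 ± 0.341 and 6.45 ± 0.179 FPKM, rose in both media (log2 fold changes 0.97 and 0.75). It was lower in Lysfree than in Differentiated with no overlap and was not called (-0.23, edgeR adjusted p = 0.0745), but was called with DESeq2, limma, either filter on low counts and median-of-ratios scaling (adjusted p of 0.00945 to 0.047) and without Lysfree 1 (0.00158).

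The other large-subunit factors rose in both media. Nol8 had the lowest Undifferentiated level of the genes above the floor and a large change (log2 fold change 1.64 in Lysfree against Undifferentiated). It was at 2.24 ± 0.32, 3.88 ± 0.272 and 6.73 ± 0.702 FPKM in Undifferentiated, Differentiated and Lysfree. Nip7, which acts in 60S maturation, was at 13.2 ± 1.02, 19.1 ± 0.569 and 29.4 ± 1.58. Nol9, Rrp8, Rrp15 and Ebna1bp2 had log2 fold changes of 0.37 to 0.77 in Differentiated and 0.63 to 0.95 in Lysfree against Undifferentiated. Rrp8, a nucleolar methyltransferase, shares 9.98% of its exon bases with Ilk. Wdr74 was at 0 to 2 counts in every library, under the floor of 3 counts below which a gene was not told from 0, and no fold change is given.

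**Figure D5:**
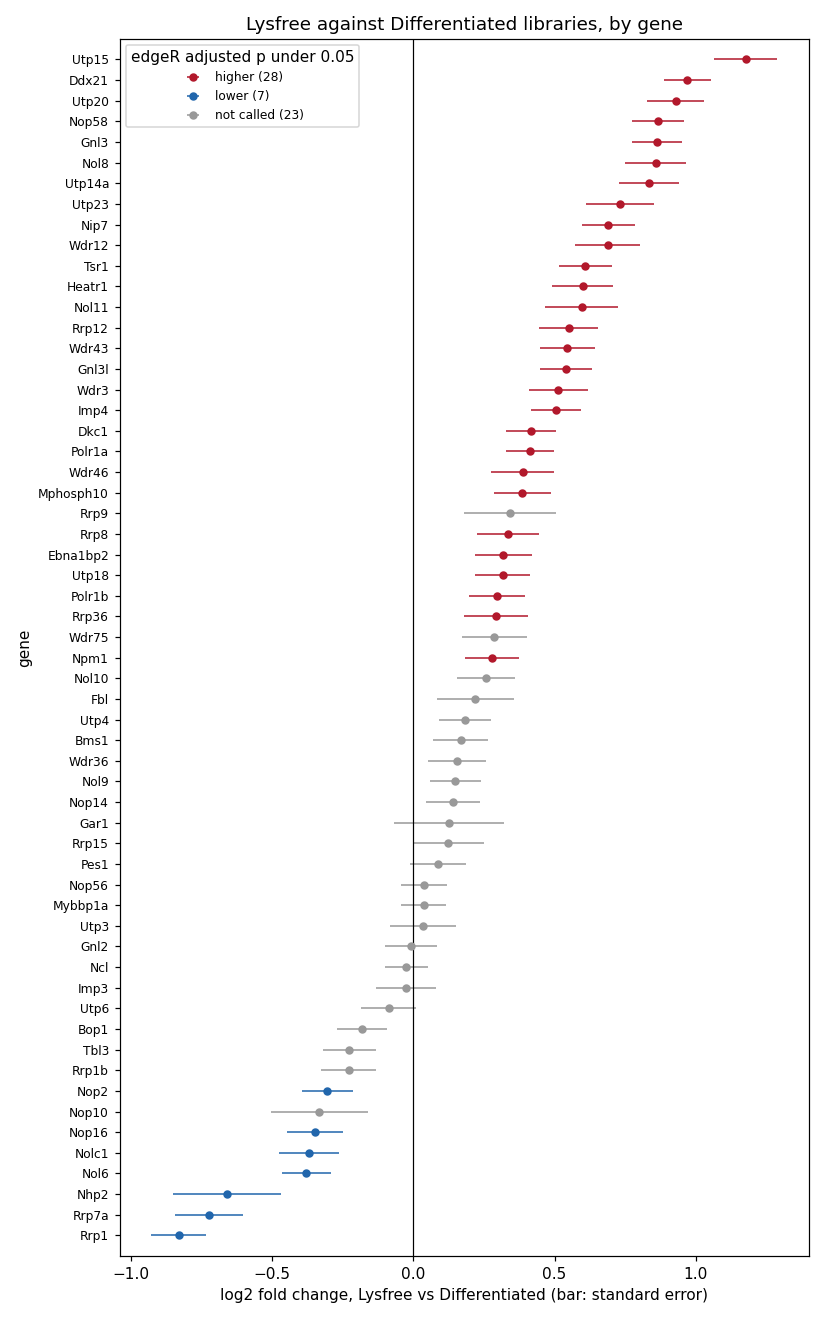
Log2 fold change with standard error (horizontal axis) of 58 genes in Lysfree against Differentiated, sorted by value, with genes called higher in red (28), lower in blue (7) and not called in grey (23). Utp15, Ddx21 and Utp20 are at the upper end, and Rrp1, Rrp7a and Nhp2 at the lower end.

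Other genes of the pathway, 119 in all and not among the 59, moved less uniformly. Of the 118 tested, 93 rose and 10 fell in Differentiated against Undifferentiated, 82 rose and 5 fell in Lysfree against Undifferentiated, and 36 were higher and 26 lower in Lysfree than in Differentiated, with medians of 0.58, 0.68 and 0.10. Without Lysfree 1, 95 rose and 6 fell against Undifferentiated, and 49 were higher and 33 lower than in Differentiated. With all libraries, 23.0% of all genes were called higher and 23.2% lower in Differentiated against Undifferentiated, and 18.0% and 17.1% in Lysfree against Undifferentiated. Between the media the shares were 19.7% and 18.8% of all genes, and 33.2% and 30.0% of expressed genes. The counts of 36 and 26 between the media did not exceed the shares of expressed genes. The U3 processome proteins Pwp2, of the UTP-B complex, and Diexf were among those higher in Lysfree, at 7.43 ± 0.33, 10.1 ± 0.167 and 21.2 ± 0.57 FPKM and at 6.61 ± 0.523, 7.19 ± 0.322 and 21.5 ± 1.54, as was Naf1, which loads H/ACA snoRNPs, at 10.1 ± 0.939, 10.5 ± 1.19 and 32.1 ± 5.29. These 3 were chosen after their values were seen. Of the 22 exosome and RNase MRP genes tested, 19 rose in Differentiated and 13 in Lysfree, or 18 without Lysfree 1.

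The cytosolic ribosomal proteins, which the factors build into ribosomes, went the other way. Of 79, 60 fell and 7 rose in Differentiated against Undifferentiated (median log2 fold change -0.33), 48 fell and 7 rose in Lysfree against Undifferentiated (-0.45), and 27 were lower and 15 higher in Lysfree than in Differentiated (-0.11). Many of these genes are short and have processed pseudogenes, so their counts are less certain, and without Lysfree 1, in which short genes ran low, 55 fell and 15 rose against Undifferentiated, and 36 were lower and 28 higher than in Differentiated. Proliferation genes, 20 in all, rose in 18 cases in Differentiated and in 7 in Lysfree, where 3 fell, and 14 were lower and 1 higher in Lysfree than in Differentiated (16 and 1 without Lysfree 1, when 6 fell against Undifferentiated). Proliferation and biogenesis genes thus both rose in most cases in Differentiated against Undifferentiated. In the comparisons with Lysfree, most biogenesis genes rose over Undifferentiated and more were higher than lower against Differentiated, unlike the proliferation genes. Of 15 p53 target genes tested, 10 were higher and 1 lower in Lysfree than in Differentiated (11 and 2 without Lysfree 1). The part of these lists in the results was not tested. Among expressed genes, 37.3% were called higher and 37.7% lower in Differentiated against Undifferentiated, and 30.5% and 27.8% in Lysfree against Undifferentiated. Between the media the shares were 33.2% and 30.0%.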

How the data were processed

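Total RNA of 9 3T3-L1 libraries (3 groups, 3 each) was poly A enriched and sequenced. The authors mapped reads to mm10 with HISAT2 2.0.5 and counted them per gene with featureCounts 1.5.0-p3 (both per the submitters' processing notes). The strand setting and annotation are not given in the sources used here. The deposited values are raw read counts and FPKM, which the authors scaled to gene length and library total.

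Counts were tested with edgeR 4.0.16 (R 4.3.3, TMM, glmQLFTest) on the 6 libraries of each comparison, keeping each gene that any of them counted at least once. Standard errors are the log2 fold change divided by the square root of F. Replicate numbers were not used as a block, and 3 libraries against 3 allow no exact permutation p below 0.1. Members, lists, roles and the genes named in full (a representative set per role, the 3 largest and 3 smallest changes, and members called against the majority) were chosen with earlier results of these data known. Coding sequences and overlaps came from GENCODE vM21, in which 55 of 59 members had the same start and end, and promoters from RefSeq. Lysine codons stand in for protein sequences, which were planned and were not used here. The fits were tested on simulated data. Alternatives were DESeq2 1.42.0, limma 3.58.1 on log2(FPKM + 1) and log2(FPKM + 0.1), other scalings and filters, all 9 libraries in a single fit, a replicate block and leaving out each library.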

Additional observations from a re-analysis of the deposited data

How the results depend on the processing

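Counts of called members kept their direction under every alternative run. Medians of the log2 fold changes moved by more than the spread between replicates (SD 0.0305 for Differentiated against Undifferentiated, 0.0195 for Lysfree against Undifferentiated and 0.0354 for Lysfree against Differentiated). With library sizes alone they were 0.66, 1.09 and 0.36, and 3 members instead of 1 exceeded 2-fold in Lysfree against Differentiated. In Lysfree against Undifferentiated the median was 1.03 with edgeR's expression filter, 1.00 with at least 10 counts in every library, 1.04 with all 9 libraries in a single fit, and 0.94 and 1.01 with limma on log2(FPKM + 1) and log2(FPKM + 0.1), where 1 member was called lower in place of 2. In Lysfree against Differentiated it was 0.23 with at least 10 counts, and 0.20 with both limma fits, under which 21 members were called higher. The cause was not tested.

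Leaving out each library in turn gave medians of 0.68 to 0.74, 1.02 to 1.06 and 0.23 to 0.31. Members called higher were 48 to 49, 51 to 55 and 22 to 36 (fewest without Differentiated 1 or 2, most without Lysfree 1), and members called lower 0, 1 to 2 (1 without Undifferentiated 3) and 6 to 11 (11 without Lysfree 1). Those past 2-fold numbered 13 to 18, 31 to 35 and 1.

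Deviations of same-numbered libraries from their group means had correlations of -0.0842 to 0.115, and those of other pairs -0.161 to 0.114. The labels do not say whether the numbers pair the libraries, and with 3 libraries per group these values cannot settle it. With the replicate block, 48, 54 and 27 members were called higher and 0, 2 and 8 lower.

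Signs were checked in the members named in full for each comparison, and changed only in those near 0 that were not called. The other members were not checked in the same way. Of these, Imp3 in Lysfree against Differentiated went from -0.0274 to 0.0242 without Lysfree 1. In Differentiated against Undifferentiated, Rrp36 was at -0.00889 and Gnl3 at -0.00166 with library sizes alone, and Utp23 at 0.00599 and 0.00749 with the limma fits. Leaving out a library spanned -0.0907 to 0.0553 for Utp23, -0.0456 to 0.104 for Rrp36, -0.119 to 0.0204 for Rrp1 and -0.0195 to 0.0645 for Gnl3, and, in Lysfree against Undifferentiated, -0.0204 to 0.191 for Imp3. In Lysfree against Differentiated, Ncl was at 0.0492 with library sizes alone, and Nop56 at -0.016 with at least 10 counts and at -0.0242 and -0.0245 with the limma fits.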
